A study of Mus musculus with 583 samples.

Results

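The genes described here maintain telomeres, the repeat-covered ends of chromosomes. They are Tert, Terf1, Terf2, Terf2ip, Tinf2, Acd, Pot1a and Rif1, taken as a fixed list by name, and they are 8 of the 38924 mouse genes in the table of counts (26619 genes had at least 1 count in any cell). Every sample was a mouse embryonic stem cell (line J1) grown in 2i/LIF medium, which keeps such cells in ground-state pluripotency through LIF and a pair of kinase inhibitors. The study set 6 single-cell RNA-seq methods side by side, so the question for each gene is how much its measured level depends on the method. Smart-seq / C1 (on the Fluidigm C1 chip) and Smart-seq2 are full-length methods, whose values are read counts. CEL-seq2 (also on the C1), MARS-seq, Drop-seq (in droplets) and SCRB-seq (after a FACS sort) are 3′ tag methods, which read only the ends of transcripts and count unique molecular identifiers (UMIs). In vitro transcription amplifies the cDNA in CEL-seq2 and MARS-seq, and PCR does so elsewhere. Each method had replicate libraries A and B, so there were 12 libraries.

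Shelterin is the protein complex that covers telomeric repeats and keeps chromosome ends from being handled as DNA breaks. Terf1 and Terf2 encode TRF1 and TRF2, which bind duplex telomeric DNA. Terf2ip encodes RAP1, a partner of TRF2, and Tinf2 encodes TIN2, which links TRF1 and TRF2 to TPP1, the product of Acd. TPP1 in turn holds POT1, which covers the single-stranded overhang, and recruits telomerase. Tert encodes the reverse transcriptase of telomerase, the enzyme that lengthens telomeres and is active in embryonic stem cells. Rif1 is named after its yeast relative, a partner of Rap1. In mammals it acts in the timing of DNA replication and in the choice of repair pathway at DNA breaks, and it is no stable part of shelterin.

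The 3′ ends are shown first, because tag methods read a transcript there, while full-length methods read along its length. Of each gene's longest coding transcript in GENCODE M21 (GRCm38), the last 50 nt were searched on the transcript strand for AATAAA or ATTAAA, the usual signals of cleavage and polyadenylation. Such a motif was found for 6 of the 8 genes, and for 65.72% of all tested genes with an annotated transcript. The 30-base stretches, 5′ to 3′, have the motif in capitals.
Tert: gaaaaacatacaAATAAAgagtaaatcatg
Terf1: ccttatatatatAATAAAcagaagcattag
Terf2: gtaacgttcttcATTAAAgtcttgcttctc
Terf2ip: acttacatataataAATAAAtctttaaaag
Acd: aggtgtagttcctAATAAAgaccatgattg
Rif1: ttaggatatataATTAAAccatttgtaaat
For Tinf2 and Pot1a neither motif lay in that window, which says only that these letters are not there. Rif1 also holds an A-rich stretch inside its coding sequence, ending 5393 nt before the end of the transcript. It is shown because oligo-dT primers can anneal to runs of A, with the window of 20 bases that holds at least 16 A in capitals.
Rif1 coding site: cacatACAAAGGATAAAAAAAAAAAagtga
No other of the 8 genes had such a window in its coding sequence. Not wholly inside the coding sequence, Terf1 had 1 such stretch and Terf2 had 2, each gene with up to 18 A in 20 bases. The Rif1 site holds 16. These matches are descriptions of the annotation, and their part in any level below was not tested.

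Mouse carries a pair of POT1 genes, Pot1a and Pot1b, and reads from alike stretches could be counted for either. Over 1910 aligned coding bases the genes were 79.9% identical, and the longest identical run was 41 nt. The aligned stretch around that run, coding bases 448 to 524, is shown with its 5 differences in capitals.
Pot1a: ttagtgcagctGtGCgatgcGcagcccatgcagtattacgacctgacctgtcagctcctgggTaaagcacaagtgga
Pot1b: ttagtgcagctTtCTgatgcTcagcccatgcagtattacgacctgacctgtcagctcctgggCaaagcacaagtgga
Of the 31-base words of the Pot1a transcript, 0.35% also occurred in Pot1b and 0.58% in any other gene. The share was 4.6% for Terf1, 3.8% for Terf2ip, 0.26% for Tert and 0% for Terf2, Tinf2, Acd and Rif1. Overlap with genes on the opposite strand was larger. The transcript of Tinf2 shared 38.46% of its bases, and 302 of its last 500 nt, with Gmpr2. That of Acd shared 34.53% of its bases, and 479 of its last 500 nt, with Carmil2. Whether counting used the strand is not given in the sources used here, so the counts of Tinf2 and Acd are uncertain to that degree.

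The libraries held 29 to 80 cells and 583302 to 34984056 counts of mouse genes, and the 8 genes together drew 221 to 34907 of these counts. No cell was left out, and in 10 cells the count was over 2 times that of the library's median cell. In Drop-seq, 29 of 42 barcodes in A and 12 of 34 in B were near another one of that library, and joining them left 25 and 28. Near means 1 base substituted, or 1 base missing so that the rest is shifted by 1. Cell identifiers occurring in both A and B numbered 0 for Drop-seq and 19 to 66 for the other methods. All 8 pluripotency markers were counted in every library, with a summed level of 2635 to 6981 CPM (counts scaled to the same total in each library). The fibroblast markers summed to 0.438 to 38.0 CPM (5 of 6 counted, Lum at 0 in 11 libraries and Thy1 the highest, at 31.6 CPM in CEL-seq2 A) and those of primitive endoderm to 0 to 21.8 CPM (6 of 6, Foxa2 at 0 in 9, Gata4 the highest at 8.90 CPM in CEL-seq2 A). Trophectoderm markers summed to 1.501 to 79.0 CPM (6 of 6, Elf5 at 0 in 10 libraries and Eomes the highest, at 75.1 CPM in CEL-seq2 B). The markers of a state like that of the 2-cell embryo, led by Zscan4c and Zscan4d, summed to 0 to 213 CPM (6 of 6, Gm4340 at 0 in 9 libraries), highest in SCRB-seq A. The labels do not say that A and B were separate cultures, so p-values here reflect only how these libraries vary, which may be technical. Reads are not UMIs and measure another quantity, and intervals cover counting error only.

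Levels below are CPM of counts summed over the cells of a library, scaled by TMM, and are given for A and then B. Fold changes are on the log2 scale with their standard error (SE), from edgeR's quasi-likelihood test over 14293 genes with Benjamini-Hochberg adjustment, and a gene passed at an adjusted p below 0.05. In the joint test of a difference among the methods, 65.4% of all tested genes passed, and so did each of the 7 genes other than Tert, with adjusted p from 2.31e-06 for Rif1 to 0.0325 for Tinf2. With each library left out in turn, Acd, Pot1a and Rif1 passed all 12 times (highest adjusted p 0.0479, 0.0209 and 3.3e-05). Terf1, Terf2, Terf2ip and Tinf2 failed without Smart-seq2 A (adjusted p 0.0641 for Terf1 to 0.164 for Tinf2) or B (0.0521 for Terf2 to 0.128 for Tinf2). Without CEL-seq2 B, Terf1 (0.0951) and Terf2ip (0.0651) failed, without CEL-seq2 A Terf2ip (0.0505), without MARS-seq A Terf1 (0.0562) and Terf2ip (0.0614), and without SCRB-seq A Terf1 (0.0586).

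**Figure D1:**
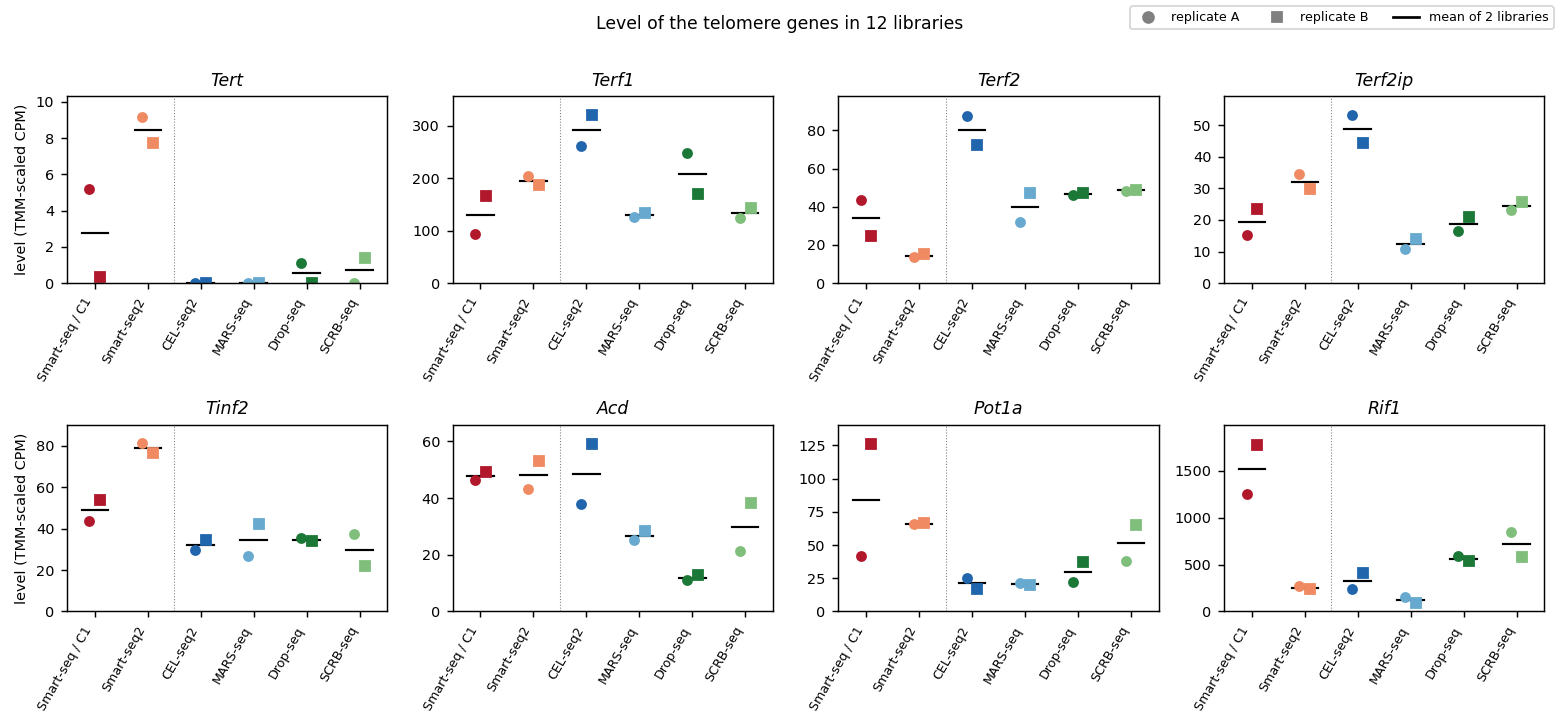
Level of each gene in TMM-scaled CPM (vertical axes, linear, each from 0) for the 6 methods, with circles for replicate A, squares for replicate B and bars for the mean of the 2 libraries. The dotted line parts the full-length methods from the 3′ tag methods, and Rif1 stands at 1252 and 1773 in Smart-seq / C1 against 235 to 270.2 in Smart-seq2.

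Tert was the rarest of the genes in every library. It lies on chromosome 13 (73626911 to 73649843, plus strand, GRCm38) and its transcript has 4313 nt in 16 exons. It received 109 and 5 reads in Smart-seq / C1 (5.17 and 0.32 CPM) and 385 and 276 reads in Smart-seq2 (9.17 and 7.74 CPM). It had 0 UMIs in both CEL-seq2 and both MARS-seq libraries, 1 and 0 in Drop-seq (1.10 and 0 CPM) and 0 and 3 in SCRB-seq (0 and 1.40 CPM). Smart-seq2 was thus above all other libraries, while Smart-seq / C1 B lay below the tag libraries that held a UMI.

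Pooled over libraries, Tert had 7.51 CPM in the full-length methods (775 reads, of which 661 in Smart-seq2). No interval is given for these, since reads without UMIs are not independent. In the tag methods Tert had 0.345 CPM (4 UMIs, Poisson 95% interval 0.0941 to 0.884). The CEL-seq2 and MARS-seq libraries together held 0 in 5639885 UMIs, where a limit of 3 counts is 0.532 CPM. Tert passed the filter on low counts only through the full-length libraries, and would not have passed without Smart-seq2. Differences of those libraries from the others therefore had to appear, and no fold change or p is given for Tert.

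Tert was counted in at most 53.8% of the cells of any library. In Smart-seq / C1, 24.6% of 69 cells in A and 6.56% of 61 in B had at least 1 read (exact 95% intervals 15.1 to 36.5% and 1.82 to 15.9%), and in Smart-seq2 53.8% of 80 in A and 46.8% of 77 in B (42.2 to 65.0% and 35.3 to 58.5%). In Drop-seq 1 of 42 barcodes in A and in SCRB-seq 2 of 45 cells in B had a UMI (2.38% and 4.44%). By a limit of 3 cells for a count of 0, the 0 of 34 and 37 cells in CEL-seq2 A and B allow up to 8.82% and 8.11% of cells with a UMI, and the 0 of 29 and 36 in MARS-seq up to 10.3% and 8.33%. The upper bounds of the exact intervals are 10.28% and 9.49% for CEL-seq2 and 11.9% and 9.74% for MARS-seq. A single cell of Smart-seq / C1 A gave 33 reads, or 30.3% of that library's Tert reads, and the top cell of Smart-seq2 A gave 37 reads, or 9.61%. With each cell thinned to 10000 counts, Tert was seen in 2.90 and 0% of Smart-seq / C1 cells and 11.3 and 7.79% of Smart-seq2 cells, and in 1 tag library only, SCRB-seq B, at 2.22%. There is no other cell type here that should lack Tert, so a share of cells from free RNA could not be measured.

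Terf1, which encodes the duplex-binding protein TRF1, did not pass the test between full-length and tag methods and was higher in CEL-seq2 than in MARS-seq. It lies on chromosome 1 (15805646 to 15844052, plus strand), with a transcript of 2268 nt in 10 exons. It stood at 93.6 and 166.6 CPM in Smart-seq / C1 and at 203.6 and 187.5 CPM in Smart-seq2. Among tag libraries it had 261.5 and 321.5 CPM in CEL-seq2, 125.4 and 134.2 CPM in MARS-seq, 247.9 and 170.01 CPM in Drop-seq and 125.04 and 143.3 CPM in SCRB-seq. CEL-seq2 was above all the others, and MARS-seq, SCRB-seq and Smart-seq / C1 overlapped at the low end.

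Full-length libraries averaged 162.8 ± 48.6 CPM of Terf1 (SD, n = 4) and tag libraries 191.1 ± 75.5 CPM (n = 8), a log2 fold change of -0.18 ± 0.21 (SE, adjusted p = 0.507). CEL-seq2 was higher than MARS-seq by 1.17 ± 0.35 (n = 2 each, adjusted p = 0.0214). That call was lost without CEL-seq2 B (1.02, adjusted p = 0.111), MARS-seq A (1.09, 0.164) or MARS-seq B (1.248, 0.116). Smart-seq / C1 against Smart-seq2 gave -0.59 ± 0.33 (adjusted p = 0.249) and Drop-seq against SCRB-seq 0.64 ± 0.34 (adjusted p = 0.335), neither of which passed.

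Terf2, which encodes TRF2, the protein that forms the protective loop of the telomere, was the only one of the genes that passed the test as lower in the full-length methods. It lies on chromosome 8 (107069400 to 107096547, minus strand), with a transcript of 2667 nt in 10 exons. It stood at 43.6 and 24.8 CPM in Smart-seq / C1 and at 13.7 and 15.1 CPM in Smart-seq2. UMI levels were 87.7 and 72.4 CPM in CEL-seq2, 32.2 and 47.1 CPM in MARS-seq, 46.3 and 47.0 CPM in Drop-seq and 48.5 and 48.8 CPM in SCRB-seq. Of the full-length libraries only Smart-seq / C1 A reached into the range of the tag libraries.

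Full-length libraries averaged 24.3 ± 13.8 CPM of Terf2 (SD, n = 4) and tag libraries 53.8 ± 17.6 CPM (n = 8), a log2 fold change of -1.22 ± 0.27 (SE, adjusted p = 0.00104). The call held with any library left out (adjusted p at most 0.0247) and was lost with limma on log2(CPM + 1) averaged over cells (-0.52, adjusted p = 0.25). Smart-seq / C1 was higher than Smart-seq2 by 1.246 ± 0.41 (n = 2 each, adjusted p = 0.0483). That call failed without any 1 of 11 libraries (adjusted p up to 0.355, without Smart-seq2 A) and held only without Smart-seq / C1 B (1.57, adjusted p = 0.0217). It also failed without the filter on low counts (adjusted p = 0.123) and by limma (0.525). CEL-seq2 against MARS-seq gave 0.997 ± 0.44 (adjusted p = 0.114) and did not pass. Limma gave 3.58 there (adjusted p = 0.000472), beside a median of 0.85 for all tested genes.

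Terf2ip, which encodes RAP1, lies on chromosome 8 (112011398 to 112020528, plus strand), with a transcript of 3560 nt in 3 exons. It stood at 15.4 and 23.6 CPM in Smart-seq / C1 and at 34.7 and 29.7 CPM in Smart-seq2. It had 53.2 and 44.4 CPM in CEL-seq2, 10.7 and 14.1 CPM in MARS-seq, 16.5 and 21.0 CPM in Drop-seq and 23.1 and 25.6 CPM in SCRB-seq. The highest method, CEL-seq2, and the lowest, MARS-seq, both amplify by in vitro transcription.

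CEL-seq2 was higher than MARS-seq in Terf2ip by 1.95 ± 0.54 on the log2 scale (SE, n = 2 each, adjusted p = 0.0139). The call was lost without MARS-seq A (1.73, adjusted p = 0.11) or B (2.18, adjusted p = 0.0665), whose counts of Terf2ip came to 18 UMIs together. Full-length libraries averaged 25.8 ± 8.30 CPM (SD, n = 4) and tag libraries 26.1 ± 15.0 CPM (n = 8), with a log2 fold change of 0.12 ± 0.29 (adjusted p = 0.773). Smart-seq / C1 lay below Smart-seq2 without passing (-0.72 ± 0.46, adjusted p = 0.303). That difference passed by limma on the mean over cells (-2.04, adjusted p = 0.0191), where the median of all tested genes was -0.36.

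Tinf2, which encodes the bridging protein TIN2, was the only one of the genes whose full-length libraries all lay above all tag libraries (6.39% of tested genes did so). It lies on chromosome 14 (55674689 to 55681820, minus strand), with a transcript of 2956 nt in 9 exons. It stood at 43.7 and 53.8 CPM in Smart-seq / C1 and at 81.2 and 76.2 CPM in Smart-seq2. Tag libraries held 29.5 and 34.5 CPM in CEL-seq2, 26.9 and 42.4 CPM in MARS-seq, 35.3 and 34.0 CPM in Drop-seq and 37.4 and 21.9 CPM in SCRB-seq. The tag methods overlapped one another throughout.

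Full-length libraries averaged 63.7 ± 17.9 CPM of Tinf2 (SD, n = 4) and tag libraries 32.7 ± 6.42 CPM (n = 8), a log2 fold change of 0.92 ± 0.25 (SE, adjusted p = 0.00559). The call held with any library left out (adjusted p at most 0.0181). Gmpr2, the gene that overlaps it on the opposite strand, was higher in the full-length methods as well, by 1.22 ± 0.36 (adjusted p = 0.00996), with 28.3 and 40.3 CPM in Smart-seq / C1, 48.5 and 55.7 CPM in Smart-seq2 and 6.61 to 34.0 CPM in the tag libraries. The part of Gmpr2 reads in the Tinf2 result was not tested. None of the other contrasts passed for Tinf2 by edgeR, with adjusted p from 0.269 to 0.911. By limma on the mean over cells, Smart-seq / C1 was lower than Smart-seq2 (-2.27, adjusted p = 0.0293). The median of all tested genes by limma was -0.36 there.

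Acd, which encodes TPP1, lies on chromosome 8 (105695860 to 105701102, minus strand), with a transcript of 3154 nt in 11 exons. It stood at 46.5 and 49.2 CPM in Smart-seq / C1 and at 43.1 and 53.2 CPM in Smart-seq2. By UMIs it had 38.0 and 59.1 CPM in CEL-seq2, 25.1 and 28.3 CPM in MARS-seq, 11.02 and 13.0 CPM in Drop-seq and 21.4 and 38.1 CPM in SCRB-seq. The full-length libraries were close together, CEL-seq2 overlapped them, and Drop-seq was below every other library.

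Full-length libraries averaged 48.0 ± 4.27 CPM of Acd (SD, n = 4) and tag libraries 29.2 ± 15.7 CPM (n = 8), a log2 fold change of 0.88 ± 0.27 (SE, adjusted p = 0.0121). Drop-seq against SCRB-seq gave -1.32 ± 0.52 (n = 2 each, adjusted p = 0.193) and did not pass. Limma on the mean over cells gave -2.72 there (adjusted p = 0.0105), beside a median of -0.82 for all tested genes. For CEL-seq2 against MARS-seq limma gave 2.30 (adjusted p = 0.0118), beside a median of 0.85. The in vitro transcription methods against the PCR tag methods gave 0.94 ± 0.35 (n = 4 each, adjusted p = 0.0642), which passed narrowly without Smart-seq / C1 A (adjusted p = 0.0473), Smart-seq / C1 B (0.0461) or SCRB-seq B (0.0495). Carmil2, which overlaps Acd on the opposite strand, had 0.62 and 0.13 CPM in Smart-seq / C1, 1.69 and 1.21 CPM in Smart-seq2 and 0 to 7.59 CPM in the tag libraries. Its level was highest in CEL-seq2 A and Drop-seq.

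Pot1a, which encodes a single-strand-binding POT1 protein, had the largest rise in the full-length methods among the 7 genes that passed the filter on either side alone. It lies on chromosome 6 (25743737 to 25809246, minus strand), with a transcript of 3151 nt in 18 exons. It stood at 41.7 and 125.8 CPM in Smart-seq / C1 and at 65.5 and 66.3 CPM in Smart-seq2. Levels by UMIs were 25.3 and 17.1 CPM in CEL-seq2, 21.5 and 20.01 CPM in MARS-seq, 22.0 and 37.2 CPM in Drop-seq and 37.8 and 65.1 CPM in SCRB-seq. Smart-seq / C1 A and B were far apart, and SCRB-seq B reached the level of Smart-seq2.

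Full-length libraries averaged 74.8 ± 35.9 CPM of Pot1a (SD, n = 4) and tag libraries 30.8 ± 15.9 CPM (n = 8), a log2 fold change of 1.39 ± 0.30 (SE, adjusted p = 0.000973). The call held with any library left out (1.05 to 1.85, adjusted p at most 0.00417). The in vitro transcription methods lay below the PCR tag methods without passing (-0.90 ± 0.40, n = 4 each, adjusted p = 0.113). Pot1b, the paralog, had 471 counts in all libraries together, at most 11.4 CPM (Smart-seq / C1 B), and did not pass the filter on low counts. In both Smart-seq / C1 and Smart-seq2 libraries Pot1b stood below Pot1a, at 3.27 and 11.4 CPM in Smart-seq / C1 and 3.22 and 2.05 CPM in Smart-seq2.

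Rif1, the replication-timing and break-repair factor, had the smallest p of the genes in the joint test of methods. It lies on chromosome 2 (52072832 to 52122383, plus strand), with a transcript of 8509 nt in 36 exons, the longest of the genes. It stood at 1252 and 1773 CPM in Smart-seq / C1 and at 270.2 and 235 CPM in Smart-seq2. Among the tag methods it reached 237 and 414 CPM in CEL-seq2, 154.02 and 89.5 CPM in MARS-seq, 586 and 536 CPM in Drop-seq and 851 and 578 CPM in SCRB-seq. Both Smart-seq / C1 libraries were above all others and both MARS-seq libraries below all others. Of all counts of the 8 genes, Rif1 took 81.2 and 79.97% in Smart-seq / C1 against 37.5 and 35.03% in Smart-seq2.

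Smart-seq / C1 was higher than Smart-seq2 in Rif1 by 2.58 ± 0.37 on the log2 scale (SE, n = 2 each, adjusted p = 0.000237), a 5.99-fold difference. The in vitro transcription methods averaged 223.7 ± 140.7 CPM and the PCR tag methods 637.7 ± 143.8 CPM (SD, n = 4 each), a log2 fold change of -1.67 ± 0.26 (adjusted p = 0.00025), and every library of the first kind lay below every one of the second (7.59% of tested genes did so). Both calls held with any library left out (adjusted p at most 0.00915 and 0.00463). CEL-seq2 was higher than MARS-seq by 1.44 ± 0.37 (n = 2 each, adjusted p = 0.00948), a call lost without CEL-seq2 B (0.99, adjusted p = 0.117) or MARS-seq B (1.14, adjusted p = 0.161). Full-length libraries averaged 882 ± 758 CPM (SD, n = 4) and tag libraries 431 ± 257.5 CPM (n = 8), a log2 fold change of 0.80 ± 0.21 (adjusted p = 0.00423). This average of the full-length methods joins Smart-seq / C1, above every tag library, with Smart-seq2, below the Drop-seq and SCRB-seq libraries.

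**Figure D2:**
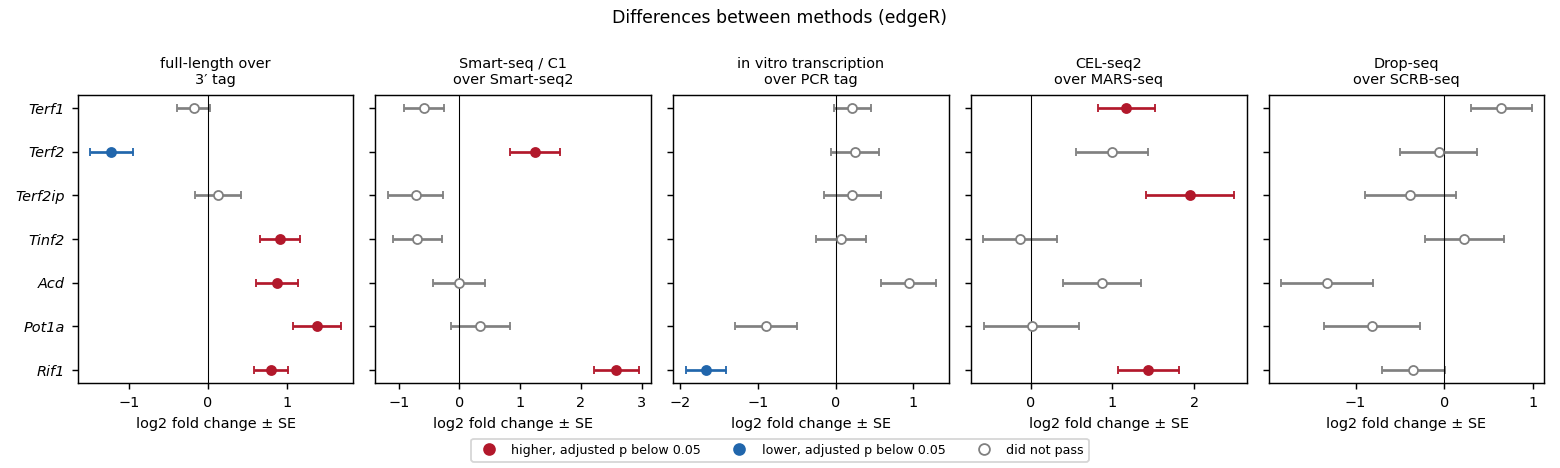
Log2 fold change with its SE (horizontal axes) of each gene in 5 contrasts of methods, red where higher and blue where lower at an adjusted p below 0.05, open where it did not pass. Tert is left out because of the filter on low counts, and Drop-seq over SCRB-seq has no filled point.

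Counted over the 7 genes other than Tert, 4 were higher in the full-length methods (Tinf2, Acd, Pot1a and Rif1) and 1 was lower (Terf2), where 48.8% of all tested genes passed (25.6% higher and 23.2% lower). In Smart-seq / C1 against Smart-seq2, 2 were higher and 0 lower, beside 8.75% and 6.81% of all tested genes. In the in vitro transcription methods against the PCR tag methods 0 were higher and 1 was lower, beside 9.14% and 12.9%. In CEL-seq2 against MARS-seq 3 were higher and 0 lower, beside 11% and 12.4%. In Drop-seq against SCRB-seq edgeR called 0 of the 7 (1, Acd, had an unadjusted p under 0.05), beside 1.51% of all tested genes (1.03% higher and 0.483% lower), and DESeq2 called none of the 7. Limma on the mean over cells called 4 lower there (Terf2, Terf2ip, Acd and Pot1a), beside 25.3% of all tested genes and a median of -0.82 for these. By limma 5 were higher in CEL-seq2 than in MARS-seq (Terf2 and Acd besides those called by edgeR), beside 36.9% of all tested genes. The median of all tested genes by limma was 0.85 there. In Smart-seq / C1 against Smart-seq2 limma called 2 lower (Terf2ip and Tinf2), beside 13.2% of all tested genes and a median of -0.36. With size factors from relative log expression the median of all tested genes moved from 0.21 to 0.07 in the first contrast, from 0.19 to 0.02 in CEL-seq2 against MARS-seq and from -0.09 to 0.11 in Drop-seq against SCRB-seq.

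Transcript length was set beside the fold changes, since full-length reads are drawn from the whole transcript and UMIs from its end. Among tested genes with transcripts of over 2000 to 4000 nt, the class of all members but Tert and Rif1, the median log2 fold change of full-length over tag methods was 0.60 and 35.3% were higher. Tinf2 (0.92), Acd (0.88) and Pot1a (1.39) lay above that median, and Terf1 (-0.18), Terf2 (-1.22) and Terf2ip (0.12) below it. Among transcripts over 8000 nt, the class of Rif1, the median was 0.46 for full-length over tag methods and 1.14 for Smart-seq / C1 over Smart-seq2, where 32.5% were higher. Rif1 lay above both, at 0.80 and 2.58. Terf2 stood at 1.246 in the second contrast, where the median of its class was 0.

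**Figure D3:**
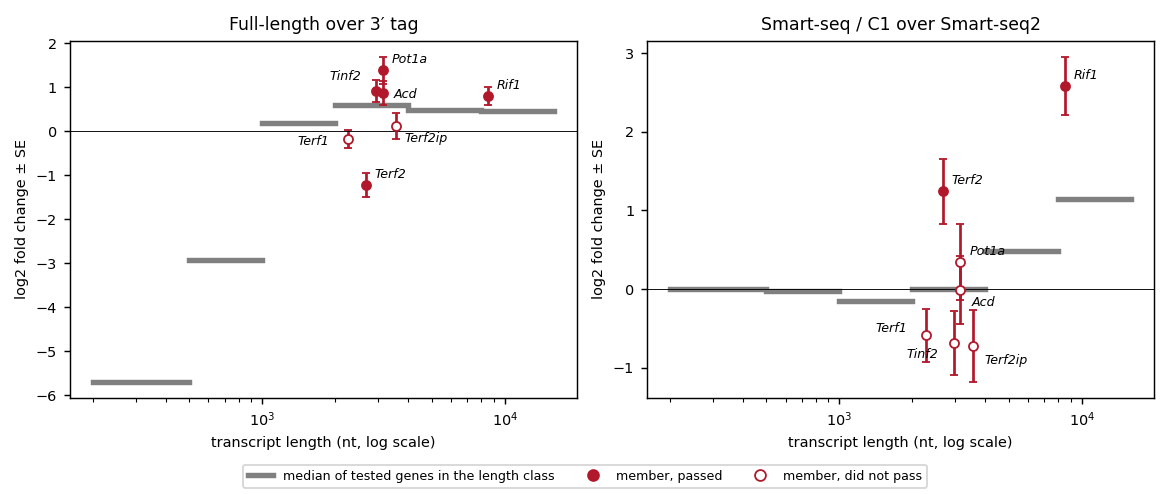
Log2 fold change with its SE (vertical axes) of the genes against transcript length in nt (log scale), filled where the gene passed, with grey bars for the median of all tested genes in 6 length classes (the outer classes are open). Rif1 stands above its class in both panels, and Tert is left out because of the filter.

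Levels of different genes were compared per kilobase of transcript, in TMM-scaled CPM per kb. In the full-length libraries the order was Rif1 (104 ± 89.1), Terf1 (71.8 ± 21.4), Pot1a (23.8 ± 11.4), Tinf2 (21.6 ± 6.05), Acd (15.2 ± 1.35), Terf2 (9.12 ± 5.17), Terf2ip (7.26 ± 2.33) and Tert (1.30 ± 0.90, all SD, n = 4). The ranges of neighbours in this order overlapped, except between Terf1 and Pot1a and between Terf2ip and Tert. In the tag libraries it was Terf1 (84.3 ± 33.3), Rif1 (50.6 ± 30.3), Terf2 (20.2 ± 6.59), Tinf2 (11.1 ± 2.17), Pot1a (9.76 ± 5.04), Acd (9.27 ± 4.98), Terf2ip (7.33 ± 4.21) and Tert (0.0724 ± 0.135, n = 8). There they overlapped except between Terf2ip and Tert. Terf2 thus was the sixth of the genes by reads and the third by UMIs. A UMI marks a transcript end and does not scale with length, so the per-kb values of tag libraries understate long transcripts such as Rif1. Without the division by length, tag libraries had Rif1 first (431 CPM), then Terf1 (191.1), Terf2 (53.8), Tinf2 (32.7), Pot1a (30.8), Acd (29.2), Terf2ip (26.1) and Tert (0.312 CPM).

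Seen cell by cell, Rif1 and Terf1 were counted in most cells of every library. Rif1 had a count in 100% of the cells of 10 libraries and in 65.5 and 75.0% of those of MARS-seq A and B. Smart-seq / C1 gave a median of 357 and 485 reads of Rif1 per cell, and Smart-seq2 gave 126 and 99. For CEL-seq2 the median was 7.5 and 27 UMIs, for MARS-seq 1 and 1 UMIs, for Drop-seq 12 and 8 UMIs and for SCRB-seq 36 and 23 UMIs. Terf1 had a count in 98.4 to 100% of full-length cells and in 72.4 to 100% of tag cells, lowest in MARS-seq. Tinf2 and Pot1a reached 100% in Smart-seq2 B and had their lowest shares, 34.5 and 17.2%, in MARS-seq A. Acd ranged from 16.7% of barcodes in Drop-seq A to 100% of cells in CEL-seq2 B, and Terf2ip from 17.2% in MARS-seq A to 91.9% in CEL-seq2 B.

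Shares were also taken at an equal depth of 10000 counts per cell, which every cell reached. Rif1 was seen in 100% of Smart-seq / C1 cells in A and B, 95 and 87.01% of Smart-seq2 cells, 94.1 and 94.6% of CEL-seq2 cells, 97.6 and 100% of Drop-seq barcodes and 100% of SCRB-seq cells in A and B, but in 44.8 and 38.9% of MARS-seq cells. Terf2 was seen in 58.8 and 54.1% of CEL-seq2 cells and in 16.4 to 38.2% of the cells of the other libraries. Tinf2 was seen in 70.0 and 48.1% of Smart-seq2 cells and in 13.5 to 30.4% elsewhere. Terf2ip was seen in 0 of 29 cells of MARS-seq A, which allows a share of up to 10.3% by the limit of 3 cells (exact upper bound 11.9%). Thinning was a single random draw, whose own variation these limits leave out. In that library 2 of 29 cells had Terf2ip when thinned to 5000 counts, and 5 of 29 with all counts. Acd was lowest in Drop-seq, at 7.14 and 8.82%, and at 16 and 14.3% with near barcodes joined.

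**Figure D4:**
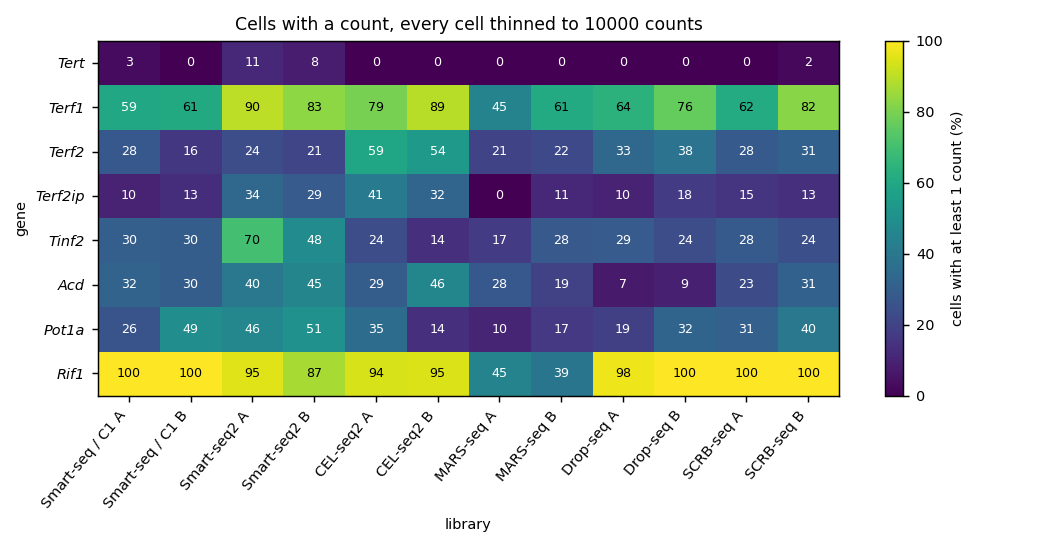
Percent of cells with at least 1 count of each gene (rows) in each of 12 libraries (columns), after thinning every cell to 10000 counts, with colour and number giving the percent. Rif1 and Terf1 are seen in most cells outside MARS-seq, and Tert in at most 11%.

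The spread among cells was described by the variance over the mean of thinned counts, which is 1 for counting error alone, where the mean was large enough. For Rif1 it was 0.95 to 3.47 over 12 libraries (median 1.48), and in the median library 25.1% of genes of like mean had a lower value. For Terf1 it was 0.92 to 2.41 (median 1.42, with 52.9% of like genes lower), and for Terf2 0.72 to 1.89 (median 1.40, 56.1% lower). For Acd, in 7 libraries, it was 0.70 to 1.53 (median 1.11, 18.5% lower). The highest value of Rif1 relative to like genes was in MARS-seq A (3.10, with 96.0% lower), and in MARS-seq B it was 1.14 (27.4% lower). Between pairs of members, correlations across thinned cells were weak. For Terf1 and Rif1 they ran from -0.23 to 0.23 over 11 libraries, with a median of -0.01, and for Tinf2 and Pot1a from -0.19 to 0.26 over 4 libraries. Cells of a library share its depth and reagents, and weak correlations of sparse counts are no finding.

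Other genes that act at telomeres numbered 53 in 4 lists, of which 52 had a count and 49 were tested. In the full-length over tag methods 17 were higher and 4 lower, beside 25.6% and 23.2% of all tested genes. In Smart-seq / C1 over Smart-seq2 10 were higher and 5 lower, beside 8.75% and 6.81%. In the in vitro transcription over PCR tag methods 3 were higher and 13 lower, beside 9.14% and 12.9%. In CEL-seq2 over MARS-seq 9 were higher and 4 lower, beside 11% and 12.4%. Terc was 1 of these lower genes because of the filter. In Drop-seq over SCRB-seq 1 was higher and 1 lower, beside 1.03% and 0.483%.

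The list of the telomerase particle holds its RNA, the proteins that bind it and its assembly factors. The list's median log2 fold change of full-length over tag methods was 0.19, beside 0.21 for all tested genes. Of its 13 tested genes 5 were higher and 2 lower in the full-length methods, beside 25.6% and 23.2% of all tested genes. Ruvbl2, an ATPase that helps assemble telomerase, was higher there by 1.52 ± 0.20 (SE, adjusted p = 4.82e-06) and higher in the in vitro transcription methods by 2.92 ± 0.26 (adjusted p = 1.28e-06). Naf1, an assembly factor of the particle, was higher in Smart-seq / C1 than in Smart-seq2 by 2.21 ± 0.46 (adjusted p = 0.00356). Nop10, a small protein bound to the RNA, was higher in CEL-seq2 than in MARS-seq by 3.24 ± 0.42 (adjusted p = 2.54e-05). Nhp2, another such protein and the most highly counted of the list, was lower in the in vitro transcription methods by -0.82 ± 0.25 on the log2 scale (adjusted p = 0.0255).

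Terc, the RNA template of telomerase, had few counts in every library. How well these methods capture this RNA was not tested, so its counts need not follow its level in the cells. Smart-seq / C1 gave 6 and 0 reads of it, and Smart-seq2 gave 46 and 53. The tag libraries held 0 and 1 UMIs of it (CEL-seq2), 5 and 9 UMIs (MARS-seq), 1 and 0 UMIs (Drop-seq) and 13 and 2 UMIs (SCRB-seq). The MARS-seq libraries, at 8.95 and 10.6 CPM, were above all others, and CEL-seq2 stood at 0 and 0.38 CPM. Terc reached the cutoff of the filter, 4.505 CPM, only in both MARS-seq libraries and SCRB-seq A, so a difference of MARS-seq had to appear and no fold change or p is given.

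The list of end capping and replication had a median of 0.435 in full-length over tag methods. Of its 13 tested genes 3 were higher and 1 lower in the full-length methods, beside 25.6% and 23.2% of all tested genes. Fen1, a flap endonuclease, fell there by 3.17 on the log2 scale (SE 0.35, adjusted p = 5.05e-07). Tnks2, a tankyrase, was higher in Smart-seq / C1 than in Smart-seq2 by 1.51 ± 0.34 (adjusted p = 0.00631). It was also higher in CEL-seq2 than in MARS-seq, by 3.16 ± 0.38 (adjusted p = 1.28e-05). Tnks, the other tankyrase, was lower in the in vitro transcription methods (-1.81 ± 0.47, adjusted p = 0.0117).

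The list of break repair at ends had a median of 0.69 in full-length over tag methods. Of its 13 tested genes 6 were higher and 1 lower in the full-length methods, beside 25.6% and 23.2% of all tested genes. Ppp1cc, a catalytic subunit of PP1, the phosphatase that Rif1 recruits, was the lower one (-3.46 ± 0.28, adjusted p = 1.1e-08). Ppp1ca, another catalytic subunit of PP1, was higher there by 0.69 ± 0.20 (adjusted p = 0.00831) and lower in Drop-seq than in SCRB-seq (-1.50 ± 0.35, adjusted p = 0.0346). Rad50, of the break-sensing MRN complex, was higher in Smart-seq / C1 than in Smart-seq2 (1.62 ± 0.38, adjusted p = 0.00734) and lower in the in vitro transcription methods (-1.89 ± 0.29, adjusted p = 0.000194), the directions of Rif1. Atr, a checkpoint kinase, was higher in CEL-seq2 than in MARS-seq (2.60 ± 0.65, adjusted p = 0.00787).

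The list of telomeric chromatin had a median of 0.17 in full-length over tag methods. Of its 10 tested genes 3 were higher and 0 lower in the full-length methods, beside 25.6% and 23.2% of all tested genes. Cbx5, which encodes the heterochromatin protein HP1 alpha, was higher there by 0.99 ± 0.19 (adjusted p = 0.00029) and higher in Smart-seq / C1 than in Smart-seq2 by 2.45 ± 0.33 (adjusted p = 0.00015). Atrx, a chromatin remodeller that deposits histone H3.3 at telomeres, was lower in the in vitro transcription methods (-2.19 ± 0.26, adjusted p = 1.92e-05). Cbx3, for HP1 gamma, was lower in CEL-seq2 than in MARS-seq (-4.50 ± 0.57, adjusted p = 2.39e-05), and Cbx1, for HP1 beta, was higher in Drop-seq than in SCRB-seq (1.29 ± 0.29, adjusted p = 0.0307).

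Among 4535 well-counted genes, those whose log2 CPM followed a member most closely over the 12 libraries were named by Pearson's r, as a description. Libraries of a method are alike, so these points are not independent. The closest to Rif1 were Ttc3 (0.97) and Uba6 (0.97), to Terf2 Ppp2cb (0.95) and Nfatc2ip (0.92), and to Tinf2 Creld2 (0.96) and Chaf1b (0.91). Those closest to Acd were Cnot8 (0.95) and Pdss1 (0.95), to Pot1a Cct4 (0.93) and Lta4h (0.90), and to Terf2ip Arpc4 (0.91) and Crlf3 (0.91). For Terf1 they were Arpc2 (0.88) and Max (0.88), and for Tert, with its many zeros, Zfp830 (0.92) and Ttc13 (0.89). None of the 8 genes was among the 2 closest to another.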

How the data were processed

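The authors deposited 1 table of counts, whole numbers per gene and cell. For the tag methods these are UMI counts from the Drop-seq pipeline with STAR 2.4.0, per the submitters' processing notes, which name mm10 as genome. The Smart-seq counts are taken as reads, since these protocols carry no UMI. Their counting tool, the annotation and the use of strand are not given in the sources used here. Reads without UMIs are not independent molecules.

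Every column was matched to a cell by its title. Of the gene identifiers 37607 matched GENCODE M21 (1317 did not, with 0.297% of counts). Counts were summed per library, spike-ins (92 rows) were left out, and edgeR 4.0.16 (filterByExpr by method, TMM, robust quasi-likelihood fit) tested 14293 genes in 5 orthogonal contrasts and jointly. All libraries entered a single fit with a pooled spread (common BCV 0.418, with 6 residual degrees of freedom). Each contrast averages methods on the log2 scale. The edgeR fit was also run on simulated counts for full-length over tag methods, with the outcome not given here. Intervals on shares of cells are exact (Clopper-Pearson, 95%), and for a count of 0 a limit of 3 counts is given as well. No doublet caller was run, so the effect of doublets was not tested.

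The 8 genes, the lists and the tests were chosen with earlier results of these data known. Besides the 8 genes, per list and contrast the gene with the smallest p that passed was named, per list the 1 with the highest expression, and Pot1b and Terc always. Shld3 had no count. For each of the 8 genes the 2 closest patterns were named, among genes whose average log2 CPM was 5 or more. Variance over the mean was compared with genes within 1.25 times of the mean. Alternatives were DESeq2 1.42.0, limma 3.58.1, size factors from relative log expression, no filter, the replicate letter as a block, leaving out each library, leaving out cells over 2 times the library median, thinning to 5000 counts and joining Drop-seq barcodes. Replicate letters did not pair the libraries (15 pairs of methods, correlations of deviations from -0.0839 to 0.0781).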

Additional observations from a re-analysis of the deposited data

Results flagged for a closer look

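Of 16 groups of 4 or 8 libraries examined for a library far from the others, 1 had one, where chance gives about 1 in 20 groups of libraries of a single kind. The groups here join libraries of different methods, for which that rate and the critical value need not hold. Pot1a stood at 65.1 CPM in SCRB-seq B, and the other 7 tag libraries held 17.1 to 37.8 CPM, highest in SCRB-seq A of the same method. The gap to the nearest library was 0.568 of the range of the 8 tag libraries, above the critical value of 0.526.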

How the results depend on the processing

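The number of genes called in Drop-seq over SCRB-seq was the least stable. It was 216 (147 higher), against 325 (280 higher) with size factors from relative log expression, 959 with DESeq2, 469 without the filter on low counts, 4066 by limma on the mean over cells and 11 to 626 with 1 library left out (lowest without SCRB-seq B). CEL-seq2 over MARS-seq had 3341, against 6484 by limma and 1779 to 3932 with 1 library left out. The in vitro transcription over PCR tag methods had 3144 (1746 to 3845), Smart-seq / C1 over Smart-seq2 2223 (609 to 3305), full-length over tag methods 6975 (6069 to 8080) and the joint test 9354 (7978 to 11000). Causes were not tested. With the replicate letter as a block, which only shares a name, the calls numbered 183 in Drop-seq over SCRB-seq, 3169 in CEL-seq2 over MARS-seq, 2961 in the in vitro transcription over PCR tag methods, 2074 in Smart-seq / C1 over Smart-seq2, 6815 in full-length over tag methods and 9004 in the joint test. With that block the adjusted p of Terf2 in Smart-seq / C1 over Smart-seq2 was 0.0635 and the fold change of Acd there 0.0051.

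No call of a member reversed, but fold changes that had not passed did. With size factors from relative log expression and with DESeq2 these were Terf2ip in full-length over tag methods (-0.019 and -0.019), Acd in Smart-seq / C1 over Smart-seq2 (0.016 and 0.017), Pot1a in CEL-seq2 over MARS-seq (-0.16 and -0.16) and Terf2 in Drop-seq over SCRB-seq (0.15 and 0.15). Terf1 in full-length over tag methods gave 0.041 without the filter and 0.53 by limma. By limma, Pot1a in Smart-seq / C1 over Smart-seq2 gave -0.97, and the in vitro transcription over PCR tag methods gave -0.36 for Terf1, -0.038 for Terf2 and -0.059 for Tinf2. Limma also gave Tinf2 0.98 in CEL-seq2 over MARS-seq and -0.73 in Drop-seq over SCRB-seq. In the joint test, Terf2ip (adjusted p 0.0504) and Tinf2 (0.0596) failed with size factors from relative log expression.

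With 1 library left out, the reversed ranges were -0.26 to 0.17 for Terf1 in full-length over tag methods, and -0.20 to 0.11 for Acd and -0.68 to 0.91 for Pot1a in Smart-seq / C1 over Smart-seq2. They were -0.19 to 0.23 for Tinf2 in the in vitro transcription over PCR tag methods, and -0.43 to 0.29 for Tinf2 and -0.16 to 0.30 for Pot1a in CEL-seq2 over MARS-seq. In Drop-seq over SCRB-seq they were -0.082 to 0.016 for Terf2, -0.12 to 0.72 for Tinf2 and -0.61 to 0.013 for Rif1. Where a method is left with 1 library, that library is assumed to vary like the others. Leaving out a library also changed the set of genes tested, to 15699 to 15902 in place of 14293. Their median log2 fold change in full-length over tag methods was then 0.26 to 0.56, beside 0.21 with all libraries. The part of this shift in the ranges above was not tested. Of the shares of cells, 44 of 96 moved beyond their interval at 5000 counts. Fewer counts per cell lower such shares in general, so this number does not measure how stable they are. Tert had at most 3 UMIs and Terc at most 13 in any tag library, and Terf2ip 18 in the MARS-seq libraries together, so counting error is large there.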
